A study of Mus musculus with 20 samples.

Results

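TRAP–seq libraries of epididymal adipose tissue (epiAT) adipocytes from 2 HHC and 2 CCC mice, 4 of the 20 mice of the series, were compared to see which genes differed after long obesity and subsequent weight loss (WL). The 4 libraries were chosen by their diet labels. HHC mice had eaten a high-fat diet (HFD) for 25 weeks and chow for the following 8 weeks, whereas CCC mice had eaten chow throughout, and all 4 were 39 weeks old. By the study's methods, controls ate a low-fat chow during the HFD period, and both groups received a different chow in the WL period. They were male, carried the genotype given as AdipoERCre x NuTRAP on a background spelled C576BL6 in the labels and C57BL/N in the study's methods, and had received tamoxifen before the diets began. HH mice (25 weeks of HFD) and CC_l mice (chow) were 31 weeks old, 2 of each, and HC mice (12 weeks of HFD and 8 weeks of chow) and CC_s mice (chow) were 26 weeks old, 3 of each.

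In TRAP–seq, a tagged ribosomal protein is expressed in 1 cell type and its ribosomes are pulled down with the mRNA they carry. Here tamoxifen-activated Cre under the adiponectin promoter switched on the GFP-tagged protein in adipocytes, and the pulldown was made from a lysate of the whole depot, in which RNA of other cells was also present. In such libraries, as in any bulk sample, fewer cells of a type and less RNA per cell cannot be told apart. White adipocytes take up glucose and fatty acids, make fatty acids from acetyl-CoA (de novo lipogenesis) under the transcription factors SREBP1 and ChREBP, and store them as triglyceride. Fatty acids that are not stored can be oxidized in mitochondria, and pyruvate dehydrogenase kinases hold glucose back from that route. The cells sit in a basement membrane of collagen IV and laminin next to capillaries, and they answer interferons with a family of large GTPases.

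Counts on genes totalled 17015346 and 14903301 in the CCC mice and 10710277 and 21433932 in the HHC mice. Values below are CPM (counts scaled by each library's TMM-adjusted total), in the order CCC replicate 1, CCC replicate 2, HHC replicate 1, HHC replicate 2 unless the mouse is named. At 3 counts, the limit used for a gene without reads, these libraries reached 0.179, 0.165, 0.251 and 0.162 CPM, a limit that covers counting error only. It takes each count as 1 read pair and would be higher if pairs were counted as 2 reads. The log2 CPM of the 2 CCC mice correlated across genes with r = 0.91 and that of the 2 HHC mice with r = 0.90, below the 0.96 of the 2 HH mice. CCC replicate 2 stood apart from the other 3 mice in its kinds of RNA. Mitochondrially encoded RNA made up 11.2% of its counts, against 1.48%, 4.23% and 1.39% in CCC replicate 1, HHC replicate 1 and HHC replicate 2, and antisense, sense intronic and long intergenic transcripts made up 4.37%, against 1.34%, 2.04% and 0.832%. Markers of other cells were summed in each mouse, and HHC replicate 1 was high in the immune ones. Its macrophage markers summed to 3874 CPM, against 1348, 1315 and 1155 CPM in CCC replicate 1, CCC replicate 2 and HHC replicate 2, and its lymphocyte markers to 313.5 CPM, against 54.3, 59.4 and 84.2 CPM. Adipocyte markers summed to 119472, 63741, 73004 and 150132 CPM, and none of the 20 was a DEG.

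DEGs, here genes with an unadjusted p under 0.01 and a change of at least 2-fold in edgeR's quasi-likelihood test, numbered 669 of 21464 genes tested. Of these, 96 (0.447% of the genes tested) were higher and 573 (2.67%) were lower in HHC, so that 14.3% of the DEGs were higher. Counts of DEGs in the gene lists below are to be set beside these 2 shares. The split depended on the scaling, with 27.0% higher under RLE normalization and 29.5% under DESeq2. An adjusted p given with a gene is the Benjamini-Hochberg value of that test over all genes. No gene reached an adjusted p under 0.05 in the edgeR test (smallest 0.0974, 2292 genes with an unadjusted p under 0.05), whereas DESeq2 gave 442. The groups did not overlap for 79 of the 96 higher and 568 of the 573 lower DEGs, and for 6187 of all genes tested (28.8%). The 2 mice of a group were not alike among the DEGs. CCC replicate 2 exceeded CCC replicate 1 more than 2-fold in 411 of the 573 lower DEGs (71.7%, against 28.7% of all genes tested). HHC replicate 1 exceeded HHC replicate 2 more than 2-fold in 54 of the 96 higher ones, and the reverse held in 19. Over all genes tested, the 2 HHC mice differed by a median of 0.88 on the log2 scale, in either direction. Without CCC replicate 2, 118 genes (0.55%) were lower and 25 (0.116%) higher.

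Genes of de novo lipogenesis were lower in HHC. All 20 measured members had a negative log2 fold change, 6 of them were lower DEGs, and the median was -1.31, beside a median of -0.06 over all genes tested, of which 43.3% were higher. The list differed little with CCC replicate 2 left out (median -1.34), although then only Pnpla3 kept its call. Pnpla3, a lipid droplet protein whose gene is a target of both transcription factors (chromosome 15, 84167837 to 84187236, + strand, mm10), stood at 343, 2056, 57.2 and 52.7 CPM. Both HHC mice were far below both CCC mice, and CCC replicate 2 was by far the highest. The log2 fold change was -4.45 ± 0.92 (SE, adjusted p = 0.161) with all 4 mice and -2.64 without CCC replicate 2.

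Both transcription factors of the pathway were among these DEGs. Srebf1, which encodes SREBP1 (chromosome 11, 60199089 to 60222581, - strand, with exons that overlap Rai1), stood at 335 and 878 CPM in the CCC mice and at 164 and 72.7 CPM in the HHC mice. The groups did not overlap, with a gap of about 2-fold between CCC replicate 1 and HHC replicate 1 and a much larger one between the replicates numbered 2. Its log2 fold change was -2.36 ± 0.58 (adjusted p = 0.196) and -1.50, no longer a DEG, without CCC replicate 2. Mlxipl, which encodes ChREBP, stood at 79.4, 485, 43.1 and 17.2 CPM, again with CCC replicate 2 far above the rest, and its log2 fold change of -3.23 ± 0.82 (adjusted p = 0.202) became -1.40 without that mouse.

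Both HHC mice were below both CCC mice in 13 of the 20 members (28.8% of all genes did not overlap in either direction), and most of the enzymes were not DEGs. Acaca, acetyl-CoA carboxylase 1 and the committed step, stood at 448, 700, 94.2 and 117 CPM, with a log2 fold change of -2.44 ± 0.70 (adjusted p = 0.259). CCC replicate 2 weighed less here, and the value without it was -2.08. The same gene stood at 392 and 437 CPM in CC_l and at 67.9 and 102 CPM in HH. There it was also a DEG, with a log2 fold change of -2.29, and the only lower one of the list. In HH 14 of the 20 members were lower and 6 higher, 2 of these as DEGs. Acly, which makes cytosolic acetyl-CoA from citrate, stood at 995, 559, 102 and 181 CPM, and Fasn, fatty acid synthase, at 2125, 1189, 245 and 474 CPM. Neither was a DEG (adjusted p = 0.409 and adjusted p = 0.4997) despite groups that did not overlap, and both were higher in CCC replicate 1 than in CCC replicate 2, unlike the transcription factors. Acss2, which activates acetate, stood at 214, 191, 46.8 and 59.5 CPM (adjusted p = 0.388). The desaturase genes Scd2 (147, 324, 83.0 and 48.3 CPM) and Fads2 (1.97, 7.19, 0 and 0.431 CPM) were lower DEGs, with log2 fold changes of -1.84 ± 0.59 and -4.27 ± 1.32. In HH, by contrast, Scd2 was a higher DEG (log2 fold change 2.28), at 425 and 1029 CPM against 115 and 184 CPM in CC_l. Fads2 was close to the limit of detection in HHC. The most abundant member, the desaturase gene Scd1, stood at 17605, 28909, 8044 and 12806 CPM and did not pass the test (log2 fold change -1.16 ± 0.83, adjusted p = 0.644).

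Among 23 measured adipokines and secreted hormones 2 genes were DEGs, both lower (2.67% of all genes tested were lower DEGs). Angptl8, an insulin-induced inhibitor of lipoprotein lipase, stood at 397, 116, 16.9 and 10.9 CPM. Both HHC mice were below both CCC mice, and the higher CCC mouse was replicate 1. Its log2 fold change was -4.21 ± 1.30 (adjusted p = 0.276) and -4.84 without CCC replicate 2. Agt, angiotensinogen, stood at 39.4, 168, 8.38 and 24.8 CPM, with a log2 fold change of -2.64 ± 0.66 (adjusted p = 0.196) that was -1.25 and not a DEG without CCC replicate 2. Without CCC replicate 2 only Angptl8 remained. Triglyceride synthesis held no DEG among 20 members, with a median of -0.19.

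Pdk4, the pyruvate dehydrogenase kinase gene that spares glucose while fatty acids are burnt (chromosome 6, 5483351 to 5496309, - strand), was higher in both HHC mice and had the smallest p of all genes tested. It stood at 14.2 and 14.1 CPM in the CCC mice and at 299.7 and 56.8 CPM in the HHC mice. The CCC mice were alike, and the HHC mice were both higher but differed about 5-fold. Its log2 fold change was 3.65 ± 0.56 (adjusted p = 0.0974), with 3.65 without CCC replicate 2 and 2.01 without HHC replicate 1.

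Of 32 oxidation genes tested, 26 had a positive log2 fold change, 12 of them with groups that did not overlap, against 2 lower ones without overlap. Over all genes tested, 28.8% did not overlap in either direction. Pdk4, which encodes a kinase and no enzyme of oxidation, was the only DEG of the list. The list's median was 0.75, and 0.42 without CCC replicate 2. Acadl, the long-chain acyl-CoA dehydrogenase, stood at 296, 113, 673 and 566 CPM, and Acads, the short-chain one, at 36.8, 21.7, 106 and 41.6 CPM. Both had the 2 HHC mice above the 2 CCC mice, but neither was a DEG (adjusted p = 0.440 and adjusted p = 0.456). Hadhb, the thiolase subunit of the trifunctional protein, stood at 162, 130, 267 and 290 CPM (adjusted p = 0.577). In several of these genes CCC replicate 2 had the lowest value of the 4 mice.

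Cidea, a lipid droplet protein that is abundant in brown and beige fat, was the 1 DEG of the thermogenic list of 17 genes. The list had 11 positive and 6 negative log2 fold changes, and its median of 0.865 turned to -0.863 without HHC replicate 1. Cidea stood at 7.05, 2.31, 90.8 and 34.9 CPM, with both HHC mice well above both CCC mice, and a log2 fold change of 3.75 ± 0.96 (adjusted p = 0.202). Without CCC replicate 2 it was 3.15 and not a DEG. Of 25 genes of branched-chain amino acid breakdown, 23 had a positive log2 fold change and 2 were higher DEGs, Bcat1, the cytosolic aminotransferase (8.36, 1.32, 15.4 and 55.1 CPM, log2 fold change 2.87 ± 0.92), and Ppm1k, the phosphatase that activates the branched-chain ketoacid dehydrogenase (24.4, 22.7, 63.02 and 33.3 CPM, 1.03 ± 0.36). The list's median of 0.51 was 0.11 without CCC replicate 2, when neither was a DEG, and -0.22 without HHC replicate 2. For Ppm1k the CCC mice were closely matched, and the fold was small.

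**Figure D1:**
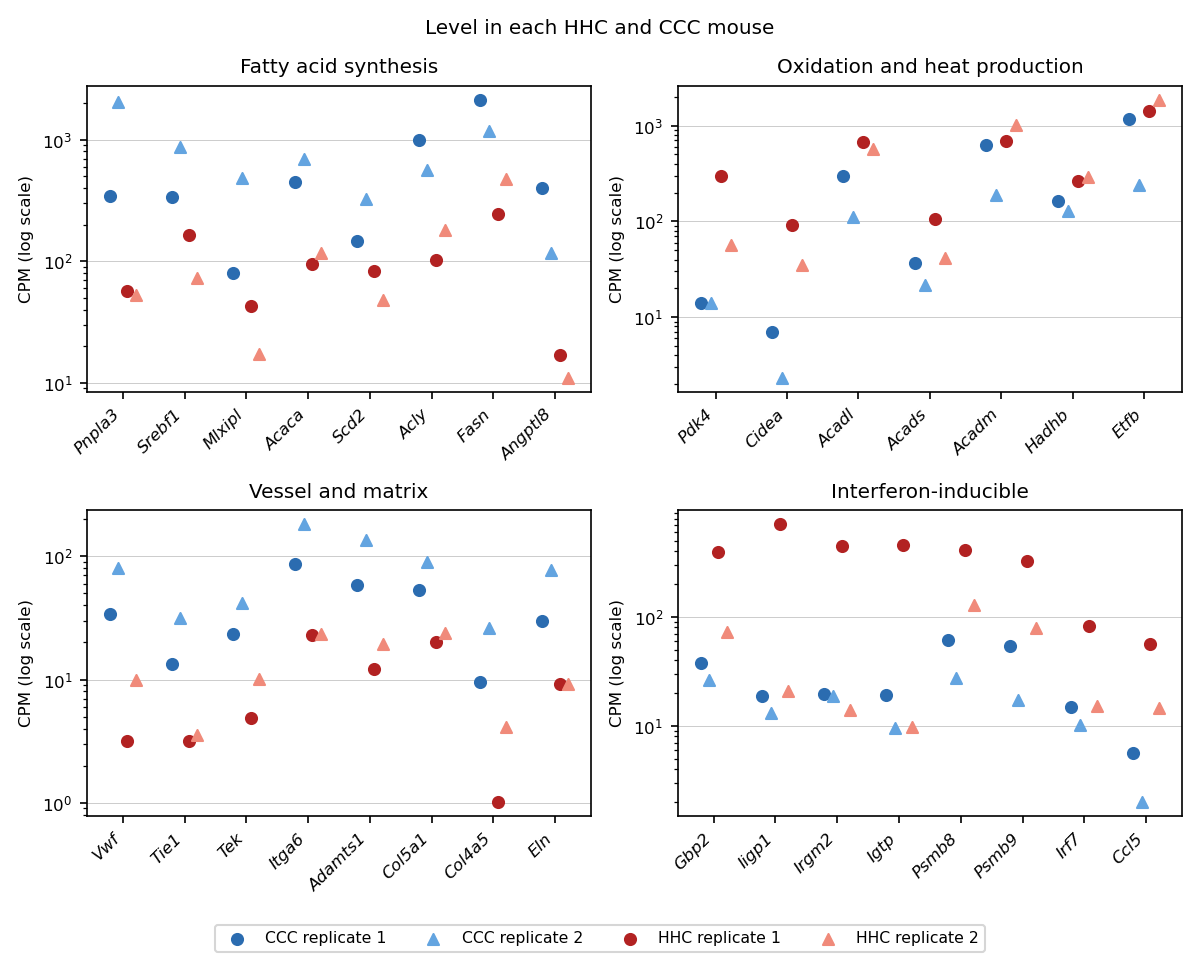
CPM on a log axis (y) of genes from 4 groups (x), 1 point per mouse, circles for replicate 1 and triangles for replicate 2, CCC in blue and HHC in red. HHC points lie below CCC points for every synthesis, vessel and matrix gene shown, whereas among the interferon-inducible genes HHC replicate 1 lies far above the other 3 mice, as for Iigp1 at 712 CPM against 13.2 to 20.8 CPM.

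Vessel markers were lower in HHC. All 12 endothelial markers had a negative log2 fold change, 11 of them with groups that did not overlap (28.8% of all genes, in either direction). Of the 12, 3 were lower DEGs, against 2.67% of all genes tested. The list's median was -2.08, and -1.33 without CCC replicate 2. Summed over the list, the markers reached 419 and 944 CPM in the CCC mice and 144 and 185 CPM in the HHC mice. CCC replicate 2 was the highest and both HHC mice were below both CCC mice. These are RNAs of cells that the pulldown was not directed at, and the part of co-purified endothelial RNA in the difference was not tested.

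Vwf, von Willebrand factor (chromosome 6, 125546774 to 125686679, + strand), stood at 34.1, 80.1, 3.18 and 9.91 CPM. The groups were far apart and did not overlap. Vwf had a log2 fold change of -3.11 ± 0.65 (adjusted p = 0.161), -2.37 and still a DEG without CCC replicate 2. Tie1 and Tek, the receptor pair of the angiopoietin pathway, stood at 13.3, 31.4, 3.18 and 3.55 CPM and at 23.3, 41.6, 4.86 and 10.0 CPM, with log2 fold changes of -2.73 ± 0.72 and -2.12 ± 0.66, and both lost the call without CCC replicate 2. Vegfa, the angiogenic factor that adipocytes secrete, stood at 83.3, 338, 39.2 and 38.1 CPM. Its log2 fold change of -2.45 ± 0.63 (adjusted p = 0.202) became -1.11 without CCC replicate 2, the one mouse with a high value. Of 11 mural and smooth muscle markers, 10 were on the lower side and 1, Kcnj8, was a DEG (14.6, 23.6, 0.838 and 6.79 CPM, log2 fold change -2.30). At 2.67% of all genes tested, a list this short would hold few lower DEGs or none.

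Matrix genes were lower along with the vessel markers. Of 40 collagen genes tested, 36 had a negative log2 fold change, 27 of them without overlap (28.8% of all genes, in either direction). The median was -1.46 (-0.74 without CCC replicate 2), and 7 of the 40 collagen genes were lower DEGs, against 2.67% of all genes tested. The 7 held 3 chains of basement membrane collagen IV and 2 of fibrillar collagen V. Col4a3 stood at 2.45, 4.99, 0.168 and 0.323 CPM (log2 fold change -3.86 ± 0.91, adjusted p = 0.183) and was the only one to remain a DEG without CCC replicate 2, at -3.26. Its HHC values were within a few reads of 0. Col5a1 stood at 53.1, 89.6, 20.03 and 23.9 CPM (log2 fold change -1.70 ± 0.45), Col4a2 at 90.3, 287, 57.9 and 55.0 CPM (-1.74 ± 0.51) and Col6a3, a chain of the microfibrillar collagen VI of adipose tissue, at 109, 158, 37.4 and 40.4 CPM (-1.78 ± 0.60). Col4a5, Col5a3 and Col15a1 were the other DEGs.

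Of 32 matrix glycoproteins and crosslinkers, 27 were on the lower side and 4 were lower DEGs, with a median of -1.01 (-0.47 without CCC replicate 2, when none of the 4 was a DEG). Eln, elastin, stood at 29.8, 77.2, 9.22 and 9.16 CPM and Lama2, a laminin chain, at 19.2, 46.4, 6.20 and 9.37 CPM. In both the HHC mice were alike and low. Lama4 and Lamc1 were the other DEGs. Outside this list, Itga6, a laminin receptor (chromosome 2, 71745616 to 71858416, + strand), stood at 87.4, 183, 22.8 and 23.6 CPM, with a log2 fold change of -2.54 ± 0.48 (adjusted p = 0.161). Adamts1, a protease of matrix proteoglycans, stood at 58.1, 136, 12.1 and 19.5 CPM (-2.62 ± 0.51, adjusted p = 0.161). Itga6 and Adamts1 remained DEGs whichever of the 4 mice was left out. Among Wnt and Notch genes 30 of 34 were on the lower side, with a median of -1.02. The Notch ligand gene Jag1 was the only DEG (94.8, 267, 51.6 and 70.6 CPM, log2 fold change -1.57), near the 2.67% of all genes tested that were lower DEGs. Without CCC replicate 2 the median was -0.49 and Jag1, at -0.63, was no DEG.

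Mesothelial markers were high in the same CCC mouse. All 10 had a negative log2 fold change and 2 (Lrrn4 and Bnc1) were DEGs, and their summed levels were 117, 457, 67.2 and 113 CPM, high in CCC replicate 2 only. Progenitor and fibroblast markers summed to 5423, 11488, 4317 and 10740 CPM, so that replicate 2 of both groups was high, and 1 of 16 was a DEG (F3, at 59.1, 169, 29.7 and 38.5 CPM). The part of these cells in the matrix result was not tested.

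During obesity the vessel and matrix genes had stood on the other side. In HH against CC_l, where 4.92% of all genes were higher DEGs, all 12 endothelial markers had a positive log2 fold change (10 DEGs, median 2.70), and 31 of 32 matrix glycoproteins did so (23 DEGs, median 2.34). Of the 40 collagen genes, 25 were positive in HH and negative in HHC, and 14 were higher DEGs in HH. Vwf stood at 15.5 and 18.6 CPM in CC_l, at 63.4 and 159 CPM in HH, at 34.1 and 80.1 CPM in CCC and at 3.18 and 9.91 CPM in HHC. The CCC mice were thus higher than the CC_l mice, which were younger and had not been moved to the later chow. Age and chow cannot be told apart in that difference. The HHC mice were the lowest of the 4 groups. Col6a3 stood at 26.1 and 43.0 CPM in CC_l, at 310.1 and 389.8 CPM in HH, at 109 and 158 CPM in CCC and at 37.4 and 40.4 CPM in HHC, where HHC lay within the CC_l range. One of the CC_l libraries, replicate 1, held spermatid transcripts and stood apart from the other.

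**Figure D2:**
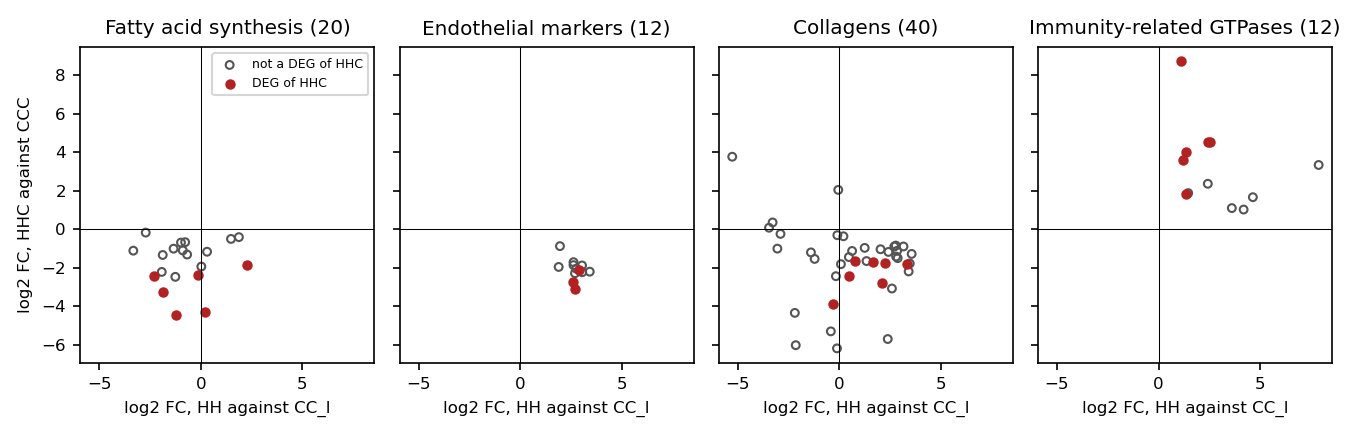
Log2 fold change of HHC against CCC (y) plotted against that of HH against CC_l (x) for the tested members of 4 gene lists, 1 point per gene, filled in red for a DEG of HHC. The 12 endothelial markers lie in the lower right quadrant, with 3 filled, and the 12 immunity-related GTPases in the upper right one, with 6 filled.

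In all, 41 genes were higher DEGs in HH and lower DEGs in HHC, which is 7.16% of the lower DEGs of HHC (beside the 4.92% of all genes) and 3.89% of the 1055 higher DEGs of HH. The 5 with the smallest p in HHC were Tmem255b, Itga6, Adamts1, Vwf and Olfml2b. Tmem255b (with exons that overlap Gas6) stood at 3.82, 3.18, 0 and 0.108 CPM and had a log2 fold change of -5.69 ± 0.94 (adjusted p = 0.123) in HHC and of 3.63 in HH. It was almost without reads in HHC, where 9.17 and 30.7 CPM were found in HH. Olfml2b, an extracellular olfactomedin-domain protein, stood at 15.7, 23.8, 4.36 and 3.66 CPM in CCC and HHC and at 23.7 and 28.7 CPM in HH. Only Cfap65, at 0 in both CCC mice and 0.419 and 1.51 CPM in HHC, was lower in HH and higher in HHC.

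The effects of HHC and HH were compared in an interaction, and 175 genes passed a Benjamini-Hochberg adjusted p of 0.05 (quasi-likelihood test of edgeR). In 170 of them the HHC effect was the lower one. The difference was -9.32 ± 1.20 for Tmem255b, -5.82 ± 0.91 for Vwf and -4.47 ± 0.68 for Itga6 on the log2 scale. Serpinf1, which encodes PEDF and is an obesity-induced secreted factor, differed by -4.36 ± 0.59. It stood at 59.4, 76.1, 37.7 and 64.3 CPM in CCC and HHC, with overlapping groups, against 26.9 and 38.8 CPM in CC_l and 451.3 and 566.5 CPM in HH. Without CCC replicate 2 only 3 of the differences passed, without HHC replicate 1 none did, and none did when CC_l replicate 1 and HC replicate 3 were left out, 2 libraries that stood apart from their groups (an alternative added after the data were seen).

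Some genes differed in the same direction in HH and HHC. A total of 15 genes were higher DEGs in both, which is 15.6% of those of HHC and 1.42% of those of HH, beside the 4.92% of all genes that were higher in HH. The 12 lower DEGs of both were 2.09% of those of HHC and 2.98% of those of HH, near the 1.88% of all genes that were lower in HH. The 5 shared higher genes with the smallest p in HHC were Gbp2, Ccl5, Sh3bgrl2, Ubd and Gpr50. Sh3bgrl2 was the steadiest of them, at 4.42, 4.06, 14.4 and 15.0 CPM (log2 fold change 1.79 ± 0.45), with 17.6 and 22.0 CPM in HH. Gpr50, an orphan receptor of the melatonin receptor family, had no reads in CCC and 0.838 and 2.37 CPM in HHC. With CCC set at 3 counts per library, Gpr50 was 9.33-fold higher. The 5 shared lower genes were Pth1r, Rnf144b, Urb1, Gm10419 and BC035947.

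Pth1r, the receptor for parathyroid hormone and its related protein, which drive lipolysis in adipocytes (chromosome 9, 110722085 to 110747145, - strand, overlapping Myl3), stood at 60.7, 45.8, 10.7 and 9.26 CPM. The mice of each group were alike and the groups were about 5-fold apart. Pth1r had a log2 fold change of -2.41 ± 0.46 (adjusted p = 0.161) in HHC, -2.03 in HH and -1.93 in HC, a DEG each time, and it remained a DEG whichever HHC or CCC mouse was left out. Rnf144b, an E3 ubiquitin ligase gene, stood at 84.2, 64.0, 18.4 and 5.39 CPM, with a log2 fold change of -2.64 ± 0.57, and was likewise lower in HH (-1.76) and HC (-2.07).

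Interferon-inducible GTPases were higher in HHC, in 1 of the 2 mice. The windows shown first are the promoters of 3 of them, from 250 bases before to 50 bases after the RefSeq start (GRCm38.p6), because they carry a core of the interferon-stimulated response element, GAAANNGAAA (or TTTCNNTTTC on the other strand), which is in capitals. They are Gbp2 at chr3:142620413-142620712, Irgm2 at chr11:58214727-58215026 and Igtp at chr11:58199306-58199605, all on the + strand.
Gbp2: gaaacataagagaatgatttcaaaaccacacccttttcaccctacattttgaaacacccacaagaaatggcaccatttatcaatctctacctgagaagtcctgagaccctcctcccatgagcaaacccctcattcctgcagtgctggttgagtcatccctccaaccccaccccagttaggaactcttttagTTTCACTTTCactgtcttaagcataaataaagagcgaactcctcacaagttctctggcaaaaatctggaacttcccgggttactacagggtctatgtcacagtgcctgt
Irgm2: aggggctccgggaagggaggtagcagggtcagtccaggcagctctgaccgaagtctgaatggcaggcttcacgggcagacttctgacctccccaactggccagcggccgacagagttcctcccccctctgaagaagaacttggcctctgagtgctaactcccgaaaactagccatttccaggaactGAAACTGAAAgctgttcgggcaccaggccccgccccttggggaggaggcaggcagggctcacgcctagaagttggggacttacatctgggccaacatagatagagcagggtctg
Igtp: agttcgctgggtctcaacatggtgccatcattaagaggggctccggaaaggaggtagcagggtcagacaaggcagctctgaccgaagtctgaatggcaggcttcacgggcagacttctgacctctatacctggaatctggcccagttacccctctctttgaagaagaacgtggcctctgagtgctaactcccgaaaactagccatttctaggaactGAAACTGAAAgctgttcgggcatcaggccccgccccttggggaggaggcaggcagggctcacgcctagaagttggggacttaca
The motif begins 59, 64 and 34 bases before the start in Gbp2, Irgm2 and Igtp, and the windows of the neighbours Irgm2 and Igtp are near copies around it. It was present in the windows of 5 of 5 guanylate-binding protein genes with a RefSeq window and of 6 of 8 immunity-related GTPase genes, against 1079 of 27025 genes (3.99%) in all. A match says only that these letters are in the window.

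Gbp2, a guanylate-binding protein of cell-autonomous immunity (chromosome 3, 142620602 to 142638008, + strand), stood at 37.5, 26.1, 396 and 73.2 CPM. Both HHC mice were above both CCC mice, HHC replicate 1 by far. Gbp2 had a log2 fold change of 2.88 ± 0.61 (adjusted p = 0.161), 2.65 without CCC replicate 2 and 1.20 without HHC replicate 1. Irgm2 stood at 19.7, 18.9, 451 and 14 CPM, Igtp at 19.2, 9.55, 457 and 9.69 CPM and Iigp1 at 18.6, 13.2, 712 and 20.8 CPM. These 3 were high in HHC replicate 1 and at the CCC level in HHC replicate 2, and without HHC replicate 1 the log2 fold changes of Irgm2 and Igtp were -0.46 and -0.57. Exons of Irgm2 and Igtp overlap, and counts of such neighbours and of near-identical family members are uncertain.

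All 10 guanylate-binding protein genes (2 higher DEGs, median 2.22) and all 12 immunity-related GTPase genes (6 higher DEGs, median 2.86) had a positive log2 fold change, and both medians turned without HHC replicate 1, to -0.56 and -0.31. Without CCC replicate 2 the medians were 2.23 and 2.81, and 1 and 3 genes of these families remained DEGs. Both families were assembled after their values were seen. Type I interferon genes were higher in 25 of 28 cases, 3 of them DEGs, with a median of 0.76 that became -0.11 without HHC replicate 1, and without CCC replicate 2 none was a DEG. Over all genes tested, the median without HHC replicate 1 was -0.27. The immunity-related GTPases lay near it, the type I interferon genes above it and the guanylate-binding proteins below it. Irf7, a transcription factor of the interferon response, stood at 14.8, 10.2, 82.1 and 15.2 CPM, and HHC replicate 2 was above CCC by a small margin only.

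Psmb8 and Psmb9, which encode immunoproteasome subunits, were the 2 DEGs among 20 genes of antigen presentation. Psmb8 (chromosome 17, 34197721 to 34201454, + strand, overlapping Gm20496), which shapes peptides for class I presentation, stood at 61.2, 27.5, 410.2 and 128 CPM. Its log2 fold change was 2.60 ± 0.53 (adjusted p = 0.161) and it stayed a DEG without any 1 of the 4 mice, with 1.53 without HHC replicate 1. Psmb9, which overlaps Tap1, stood at 53.8, 17.4, 323 and 79.0 CPM (2.50 ± 0.61), and lost the call without CCC replicate 2, at 1.90. All 20 genes had a positive log2 fold change, with a median of 1.20 that was -0.58 without HHC replicate 1.

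Lymphocyte markers were on the higher side in 15 of 16 cases, 10 without overlap (28.8% of all genes, in either direction), and Ccl5 and Trac were DEGs. Ccl5, a T cell chemokine, stood at 5.62, 1.98, 56.8 and 14.5 CPM (log2 fold change 3.23 ± 0.74, adjusted p = 0.171) and Trac, the constant region of the T cell receptor alpha chain, at 0.597, 0.769, 12.2 and 2.37 CPM (3.40 ± 1.14). Both HHC mice exceeded both CCC mice. Cd3g, a subunit of the same receptor, stood at 2.75, 1.65, 11.6 and 10.6 CPM without passing the test (adjusted p = 0.32). The list's median was 1.93, and 0.65 without HHC replicate 1. Cxcl9, an interferon-induced chemokine, stood at 48.3, 35.1, 417 and 36.8 CPM and Ubd, a ubiquitin-like protein, at 40.0, 4.50, 769 and 41.9 CPM, both following HHC replicate 1. Macrophage markers held no DEG among 16, with a median of 0.94 and of -0.49 without HHC replicate 1, whereas 13 of the 16 were higher DEGs in HH. The part of immune cell RNA in the interferon genes of HHC replicate 1 was not tested.

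**Figure D3:**
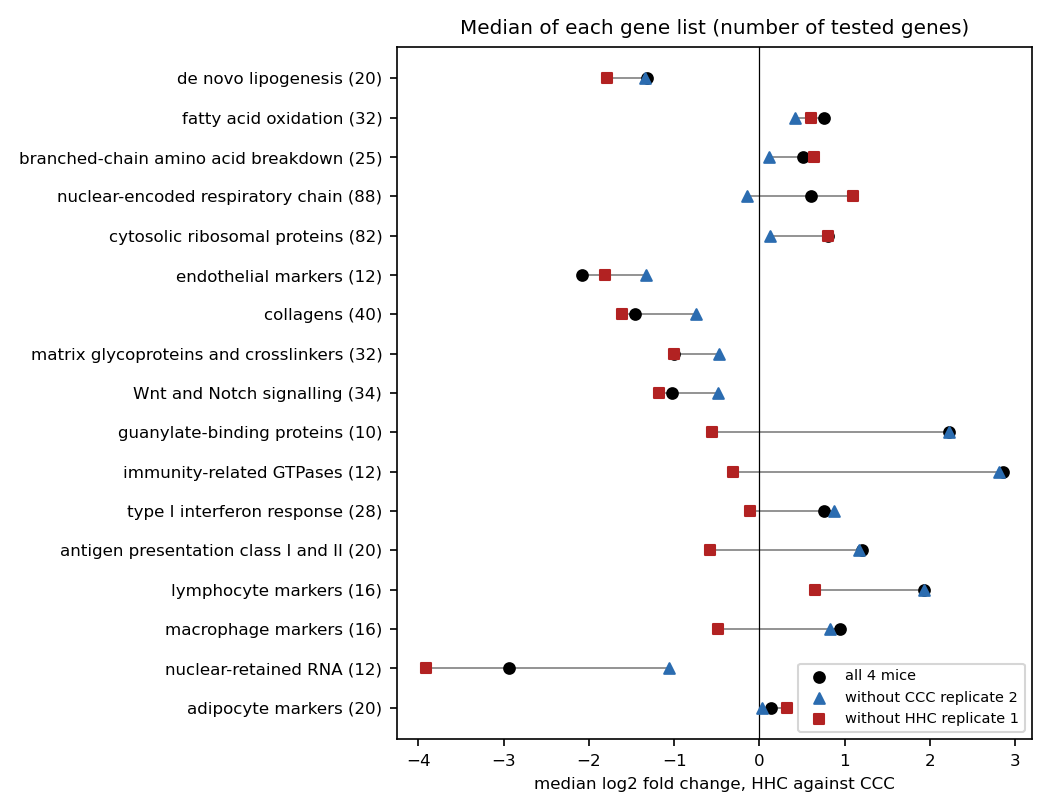
Median log2 fold change of HHC against CCC (x) for 17 gene lists (y, with the number of tested genes), with all 4 mice in black, without CCC replicate 2 in blue and without HHC replicate 1 in red. The interferon, antigen presentation and macrophage medians cross 0 without HHC replicate 1, where the median over all genes is -0.27. The respiratory chain median crosses 0 without CCC replicate 2 (0.60 to -0.15), and the lipogenesis, endothelial and collagen medians stay below 0.

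A total of 58 DEGs remained DEGs in each of the 4 refits that left out 1 mouse, 6 higher and 52 lower. The higher ones included Pdk4, Psmb8, Sycp3, Prss8 and Sh3bgrl2. Sycp3, a protein of the meiotic chromosome axis whose exons overlap Chpt1, stood at 16.5, 17.0, 122 and 612 CPM, with a log2 fold change of 4.45 ± 1.02. It was also a DEG in HC (3.08), where the mice ranged widely, from 22.0 to 349 CPM against 18.5 to 23.4 CPM in CC_s. All 20 spermatid and sperm markers were on the higher side in HC (median log2 fold change 6.32), and their part in this call was not tested. Prss8, a membrane serine protease, had no reads in CCC and 0.838 and 1.19 CPM in HHC. With CCC set at 3 counts per library, Prss8 was 5.88-fold higher. It is a gene of few reads, and 0.488 to 0.917 CPM were found in CC_l. Gng2, a G protein gamma subunit, stood at 20.3, 19.5, 101 and 43.9 CPM, Syp, a vesicle membrane protein, at 4.18, 3.73, 18.3 and 17.6 CPM, and Vat1, which overlaps Rnd2, at 28.6, 18.1, 98.4 and 85.8 CPM. Syp and Vat1 had 2 close HHC mice, with log2 fold changes of 2.18 ± 0.54 and 1.98 ± 0.50.

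Among the 52 lower genes, several were secreted or membrane proteins with low levels in HHC. Adamtsl5, a matrix protein of elastic microfibrils, stood at 21.8, 34.0, 4.86 and 6.89 CPM (log2 fold change -2.24 ± 0.42, adjusted p = 0.161), and Mst1r, a receptor tyrosine kinase, at 14.8, 47.8, 2.51 and 4.95 CPM (-3.06 ± 0.58). Prrt4 had 3.11 and 4.17 CPM in CCC and no reads in HHC, 17.6-fold lower with HHC set at 3 counts per library. St5, a regulator of small GTPases, stood at 25.4, 40.7, 10.1 and 8.51 CPM, Sec16b, an endoplasmic reticulum exit site protein, at 14.3, 39.1, 5.53 and 3.66 CPM, and Fam20a, a pseudokinase of the secretory pathway, at 7.05, 12.0, 1.51 and 1.19 CPM. In each of these the groups did not overlap, and CCC replicate 2 was the highest of the mice. Ccdc57, whose gene adjoins Fasn on chromosome 11, stood at 5.74, 10.3, 0.503 and 0.539 CPM (-3.93 ± 0.84).

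Much of the lower side rested on CCC replicate 2. Without it, 113 of the 573 lower DEGs and 14 of the 96 higher ones kept the call, so that 460 and 82 lost it, yet 479 of the lower (83.6%) and 93 of the higher (96.9%) still differed at least 2-fold in the same direction. The median log2 fold change of the lower DEGs moved from -3.11 to -1.97. Leaving out CCC replicate 1 instead left 528 of the 573 called. The other mice of the comparison mattered as well, since 190 and 149 of the lower DEGs kept the call without HHC replicate 1 and without HHC replicate 2.

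**Figure D4:**
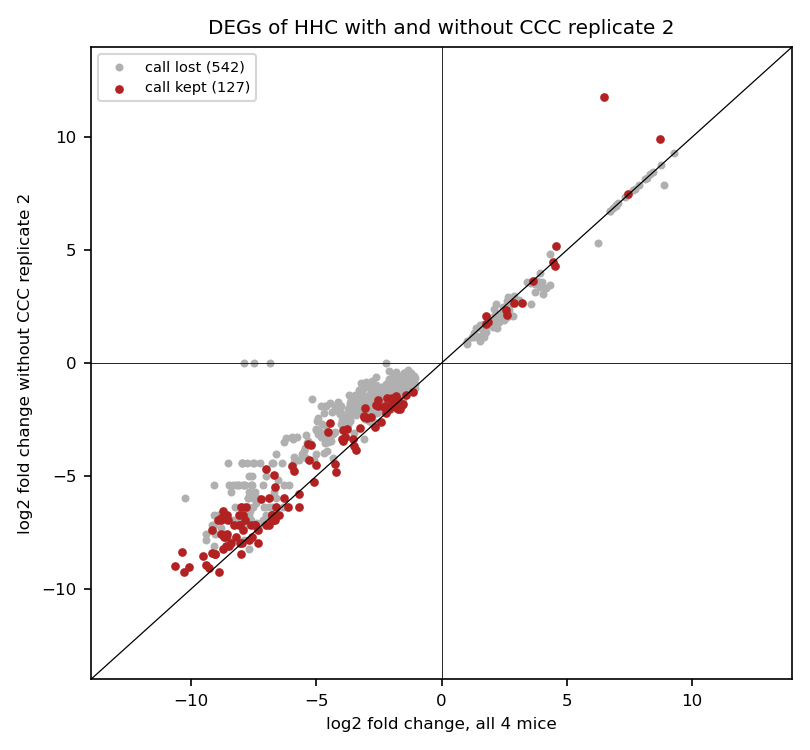
Log2 fold change of each of the 669 DEGs without CCC replicate 2 (y) against that with all 4 mice (x), red where the gene remained a DEG (14 higher, 113 lower) and grey where it did not, with the line of equality. Of the 573 lower DEGs, 534 lie above the line, closer to 0, as against 56 of the 96 higher ones that lie below it, closer to 0.

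Noncoding transcripts made up more of the lower than of the higher DEGs. Of the 573 lower DEGs, 368 (64.2%) were protein coding, against 87 of the 96 higher ones (90.6%) and 75.8% of the genes tested. Transcripts annotated as TEC, provisional and mostly unspliced gene models, held 98 lower DEGs among 910 tested (10.8%, median log2 fold change -2.31) and no higher one. Sense intronic transcripts held 10 of 141 (7.09%) and antisense transcripts 34 of 978 (3.48%), against 368 of 16264 protein-coding genes (2.26%, median 0.00). TEC transcripts made up 0.620% of the counts of CCC replicate 2 and 0.117%, 0.148% and 0.0364% of those of CCC replicate 1, HHC replicate 1 and HHC replicate 2. The strand setting of the counting was not stated, so antisense reads and reads of the host gene cannot be told apart.

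Of the 573 lower DEGs, 140 had no reads in either HHC mouse. Gm37894, Gm43509 and Fbxl7 had 2.75, 2.09 and 1.32 CPM in CCC replicate 2 and none in the other 3 mice, so nothing remained to compare without it. Gm42973 stood at 0.358, 13.7, 0 and 0 CPM and Gm43547 at 0.119, 4.12, 0 and 0 CPM. Among the higher DEGs, Fabp3, a fatty acid-binding protein of muscle and brown fat, stood at 0.239, 0, 115 and 0.108 CPM. It was high in HHC replicate 1 alone, and its log2 fold change of 8.87 ± 2.55 was -0.12 without that mouse. Fbp2, a fructose bisphosphatase, stood at 1.79, 0, 12.7 and 17.2 CPM and was high in both HHC mice. Its call was lost without CCC replicate 2, at 3.06.

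Nuclear-retained RNAs were on the lower side in HHC, chiefly through CCC replicate 2. All 12 had a negative log2 fold change with 4 lower DEGs, and the median of -2.93 was -1.06 without CCC replicate 2. Their summed level was 7589, 29502, 12539 and 3439 CPM, so that the groups overlapped. Snhg11 stood at 49.7, 374.5, 5.45 and 9.91 CPM (log2 fold change -4.78 ± 1.12), and Kcnq1ot1, an antisense RNA within Kcnq1, at 92.0, 435, 38.4 and 12.6 CPM. Neat1 stood at 885, 5618, 546 and 558 CPM and Malat1 at 6380, 21998, 11807 and 2830 CPM, and neither was a DEG. Malat1 turned from -0.96 to 0.20 without CCC replicate 2.

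Nuclear genes of the respiratory chain showed the reverse. Of 88 genes, 85 had a positive log2 fold change and none was a DEG, and the median of 0.60 was -0.15 without CCC replicate 2. Summed over the list they reached 57393, 8319, 26627 and 75634 CPM, lowest in CCC replicate 2 and with HHC replicate 1 below CCC replicate 1. Cytosolic ribosomal proteins were likewise lowest in CCC replicate 2, with 25780, 5533, 26034 and 30096 CPM in sum, HHC replicate 1 beside CCC replicate 1, and a median of 0.80 that was 0.12 without CCC replicate 2. Mitochondrially encoded RNAs had a median of -0.997 that turned to 0.67. In each of these sums the CCC mice lay further apart than the means of the groups.

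Of 9 genes that the study's text names for adipocytes, none was a DEG in this comparison. The study names Maob, Ctsd, Cyp2e1, Runx2, Gpam and Tyrobp from RNA sequencing of single nuclei, a different measure. For histone marks at their promoters it names Gpam, Cyp2e1 and Acacb as remaining repressed and Icam1, Lyz2 and Tyrobp as remaining active. It shows TRAP–seq log2 fold changes beside such marks and states that many of the promoter changes were also seen by TRAP–seq. In single nuclei, Maob and Ctsd are its examples of genes not restored after WL, and Cyp2e1 and Runx2 of genes restored in HC only. Gpam and Tyrobp are its examples of genes whose expression had normalized in both WL groups. At the shares of DEGs given above, a list this short would hold few or none. Cyp2e1, a cytochrome P450, stood at 2503, 5278, 363 and 1791 CPM (log2 fold change -1.85 ± 0.89, adjusted p = 0.475), Gpam, the first enzyme of glycerolipid synthesis, at 23.5, 31.7, 11.6 and 7.54 CPM (-1.53 ± 0.72, adjusted p = 0.464) and Acacb at 115.5, 269, 106 and 47.9 CPM (-1.33 ± 0.65, adjusted p = 0.481). The HHC mice were below the CCC mice in all 3. Runx2, a transcription factor, stood at 3.35, 4.83, 27.0 and 5.71 CPM (2.00 ± 0.82, adjusted p = 0.391), high in HHC replicate 1. Lyz2 stood at 358, 347, 446 and 359.8 CPM (0.19 ± 0.68), Tyrobp at 32.0, 23.8, 54.3 and 45.5 CPM (0.84 ± 0.63), Maob at 41.9, 22.7, 43.2 and 42.1 CPM (0.40 ± 0.60) and Ctsd at 498, 537, 514 and 467 CPM (-0.08 ± 0.49). Icam1 stood at 11.8, 19.2, 54.1 and 8.08 CPM (1.00 ± 0.80), and the 2 HHC mice lay on either side of CCC.

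Adipocyte markers differed widely between mice of the same group. Adipoq, adiponectin, stood at 4850, 1572, 1096 and 8796 CPM and Lep, leptin, at 1746, 1315, 1366 and 1839 CPM. Cfd, adipsin, was lower in both HHC mice, at 7823, 17430, 3243 and 4741 CPM, but did not pass the test (log2 fold change -1.66 ± 0.78, adjusted p = 0.46). The list had 11 positive and 9 negative log2 fold changes and a median of 0.14. For comparison with shorter obesity, no gene had an HHC effect that differed from the HC effect after Benjamini-Hochberg adjustment (edgeR, smallest adjusted p 0.0997, 2534 genes with an unadjusted p under 0.05, 294 genes by DESeq2).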

How the data were processed

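TRAP–seq libraries were made from ribosome-bound RNA by oligo-dT priming and template switching, followed by Tn5 tagmentation and paired-end sequencing. Per the labels and the submitters' processing notes, the authors trimmed reads with Trim Galore 0.6.6, aligned them to mm10 with HISAT2 2.2.1, assigned them to genes with featureCounts (Subread 2.0.1) and deposited whole-number counts, not normalized, for 46078 genes. Annotation, strand setting and pair counting were not given in the sources used here, and 75.1% to 89.1% of nonzero counts of the 4 mice were even, so that read pairs may have been counted as 2 reads. Such counting scales depth, not fold change, and halved counts were tried.

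From the counts, edgeR 4.0.16 (R 4.3.3) was used with filterByExpr, TMM normalization and quasi-likelihood fits of all 20 libraries in 8 groups (biological coefficient of variation 0.680, prior degrees of freedom 5.29), so that CCC and HHC, with 2 mice each, shared the estimate of spread. Unadjusted p under 0.01 with at least 2-fold change made a DEG, and p-values were adjusted by Benjamini-Hochberg over all 21464 genes. Log2 fold changes were fitted with a prior count and are no bounds for genes without reads, for which folds were set against 3 counts per library. The labels call replicates biological and name no litter or day. The p-values set a difference against the spread between mice within all 8 groups, not within CCC and HHC alone. Same-numbered CCC and HHC mice did not deviate together (r = -0.26 across genes), so the numbers were not used as pairs. Symbols and positions came from GENCODE vM21 (98.2% of genes) and promoter windows from RefSeq. The procedure was tested on simulated data.

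The compared groups and gene lists were chosen with earlier results of these data known, and the lists are described by counts and medians only. Named were, of protein-coding DEGs with non-overlapping groups and a mean of at least 1 CPM, the 15 higher and 15 lower with the smallest p, the top 5 genes shared with or opposite to HH, up to 5 DEGs of a list, genes named in the study's text, markers, the top 5 genes that lost the call without CCC replicate 2 in each direction and the top 5 interactions. Other list members were named to show a pathway's steps, and some genes that the rule would name are not reported here. Alternatives were DESeq2 1.42.0, RLE normalization, no low-count filter, fits of fewer libraries, a replicate block, halved counts and leaving out each mouse. Figures were drawn with matplotlib 3.10.9.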

Additional observations from a re-analysis of the deposited data

Results flagged for a closer look

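The effect of HHC against CCC differed from that of HH against CC_l for 175 genes (interaction in edgeR, Benjamini-Hochberg adjusted p under 0.05), 5 with a larger and 170 with a smaller log2 fold change in HHC. The 5 with the smallest p differed by -9.32 (Tmem255b), -4.36 (Serpinf1), -5.10 (Olfml2b), -4.47 (Itga6) and -4.57 (Adamts1) on the log2 scale. In 4 of these 5, all but Serpinf1, the HHC mice were also below the CCC mice as a DEG. For Adamts1 the CCC mice (58.1 and 136 CPM) were above the CC_l mice (15.2 and 26.1 CPM), and for Olfml2b likewise (15.7 and 23.8 against 3.11 and 4.45 CPM). The 2 control groups, which were unlike in age and in chow, thus differed in the direction of the interaction.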

How the results depend on the processing

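The counts of DEGs depended on the processing. Higher DEGs, 96 as reported, numbered 350 with DESeq2, 156 with RLE normalization, 380 without the filter on low counts, 153 with halved counts, 62 with a fit of the compared groups alone, 54 with only the long-arm libraries and 27 when the replicate block was added to the fit of the compared groups. Lower DEGs, 573 as reported, numbered 886 without the filter, 156 with only the compared groups, 235 with only the long-arm libraries and 64 with the replicate block in the fit of the compared groups. Leaving out 1 mouse at a time gave 25 (without CCC replicate 2) to 297 (without HHC replicate 2) higher and 118 (without CCC replicate 2) to 972 (without CCC replicate 1) lower DEGs. Fits of fewer libraries rest on fewer residual degrees of freedom and fewer tested genes (15807 for the compared groups), and for the other settings the cause was not tested. Genes with an adjusted p under 0.05, 0 as reported, numbered 442 with DESeq2, 396 without the filter and 0 to 15 with 1 mouse left out. Because same-numbered mice deviated in opposite directions (r = -0.26), a crossed replicate block was added after the data were seen, with 119 higher and 366 lower DEGs and 91 genes at an adjusted p under 0.05. The pairing is not given by the labels.

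Interactions of HHC with HC, 0 as reported, numbered 294 with DESeq2, 781 without the filter and 0 to 5 with 1 mouse left out. Those of HHC with HH, 175 as reported, numbered 1215 with DESeq2, 21 with RLE normalization, 1266 without the filter, 109 with halved counts, 0 with only the compared groups, 0 to 425 with 1 mouse left out and 0 without CC_l replicate 1 and HC replicate 3.

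With 1 mouse left out, medians ranged from -1.79 to -1.31 for de novo lipogenesis, -2.52 to -1.33 for endothelial markers, -1.75 to -0.74 for collagens and -3.91 to -1.06 for nuclear-retained RNA. The median over all genes moved from -0.06 to -0.27 without HHC replicate 1, to -0.29 without HHC replicate 2 and to 0.12 with only the compared groups, and list medians should be read relative to it.

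Of 102 named genes, 82 of them DEGs, 8 changed sign without HHC replicate 1 and 1 without CCC replicate 2. With 1 mouse left out, log2 fold changes ranged from -0.12 to 13.29 for Fabp3, -0.051 to 2.60 for Irgm1, -0.46 to 4.54 for Irgm2, -0.57 to 4.99 for Igtp, -0.11 to 5.52 for F830016B08Rik, -0.16 to 2.47 for Gbp7, -0.18 to 3.32 for Cxcl9, -2.33 to 0.20 for Malat1 and -0.94 to 1.79 for Icam1. Ctsd, at -0.08, was at 0.0538 with DESeq2 and with RLE normalization, 0.0638 with only the compared groups, 0.0728 with only the long-arm libraries, 0.0601 with either replicate block and 0.0788 with halved counts. Of the named genes, 58 fell short of a call they had passed, under the replicate block in the fit of the compared groups, 37 in that fit without the block, and 49 did so without CCC replicate 2. At these depths, with each count taken as 1 read pair, a gene under about 0.25 CPM in HHC replicate 1 could not be told from one without reads.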

Other observations

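Chromatin modifiers, of which 105 were tested, held 3 lower and no higher DEG, near the shares of all genes tested (2.67% lower and 0.447% higher). Their median log2 fold change was -0.26. At these shares a short list would hold few DEGs or none. Of 41 lysosomal genes none was a DEG (median -0.09), and the same held for 23 genes of glycolysis (median 0.18), 26 of the endoplasmic reticulum stress response (median -0.07) and 27 of insulin signalling and glucose uptake (median -0.16). Of 19 circadian clock genes, 15 had a negative log2 fold change and Per2, a repressor of the clock, was the 1 DEG, at 30.6 and 78.2 CPM in CCC and 16.3 and 22.3 CPM in HHC. Among 28 proliferation genes, Cdk1 was higher, at 0.597 and 0.659 CPM in CCC and 5.03 and 4.42 CPM in HHC (log2 fold change 2.898), and Cdk2 was lower, at 17.7 and 42.5 CPM in CCC and 10.9 and 3.66 CPM in HHC (-2.05). Lipid-associated macrophage markers summed to 6179 and 12138 CPM in CCC and 8946 and 6622 CPM in HHC, with no DEG among 12, and this sum was mostly Lpl, which adipocytes also express.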
